A study of Mus musculus with 374 samples.

Results

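Erythroblasts, the nucleated precursors that fill with haemoglobin before they become red cells, were set against progenitor/stem cells, the immature end of the same lineage tree, in the marrow of 1 mouse. The erythroblasts were the 96 wells of plate rows C to F and the progenitor/stem cells the 95 wells of rows K to N, together 191 of the 374 single cells of the series. For each population the unique molecular identifier (UMI) counts of its wells were summed per gene, and the sums were compared as CPM, the count scaled to a total of 1000000 UMIs on mouse genes. The same comparison was made with the 4 adult haemoglobin genes (Hbb-bs, Hbb-bt, Hba-a1 and Hba-a2) left out of the total.

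All cells came from 1 female C57BL/6 mouse aged 10 to 13 weeks, with no treatment or transgene named. Single cells were sorted into lysis buffer on 1 plate and read by CEL-seq2, which labels the 3' end of a polyadenylated transcript with the barcode of its well and with a UMI. The erythroblast gate took Ter119+ CD44+ marrow cells of middle to high forward scatter, and the progenitor/stem gate took marrow cells without lineage markers and with Kit and Sca1 on the surface. Marrow granulocytes and B lymphocytes and thymic T lymphocytes of the same mouse shared the plate and serve below as a background. Each population is 1 sample, so nothing was tested between them, and every interval given is a 95% interval that covers counting error only.

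As background, red cell formation runs from Kit-expressing stem and progenitor cells through cells that answer erythropoietin to erythroblasts. In these the transcription factors GATA1 and KLF1 switch on globin, haem and membrane genes while the cell divides a few last times. Haem is built from glycine and succinyl-CoA by enzymes of the mitochondrion and cytosol, on iron brought in by the transferrin receptor, and globin and haem together make haemoglobin. Ribosomes, mitochondria and the nucleus are lost at the end of this path. Stem cells keep a different set of genes on, including GATA2, homeobox factors and receptors for early cytokines.

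Promoter sequences stand here first because the GATA letters, read AGATAA on one strand and TTATCT on the other, lie close to the start site of 3 of the genes that were much higher in erythroblasts. The 200 bases before the RefSeq start site (GRCm38.p6) are printed 5′ to 3′ on the strand of each gene, in lower case with the letters in capitals, and the 3 were chosen after the matches had been seen.
Alas2 (chrX:150547217-150547416, plus strand): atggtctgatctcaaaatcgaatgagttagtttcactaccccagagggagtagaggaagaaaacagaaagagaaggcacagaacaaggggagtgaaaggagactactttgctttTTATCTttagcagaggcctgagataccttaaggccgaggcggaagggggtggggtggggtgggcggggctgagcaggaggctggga
Epor (chr9:21963577-21963776, minus strand): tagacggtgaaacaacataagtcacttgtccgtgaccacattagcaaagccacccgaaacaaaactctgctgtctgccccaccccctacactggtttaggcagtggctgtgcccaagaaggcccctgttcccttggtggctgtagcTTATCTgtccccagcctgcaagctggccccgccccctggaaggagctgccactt
Trim10 (chr17:36869374-36869573, plus strand): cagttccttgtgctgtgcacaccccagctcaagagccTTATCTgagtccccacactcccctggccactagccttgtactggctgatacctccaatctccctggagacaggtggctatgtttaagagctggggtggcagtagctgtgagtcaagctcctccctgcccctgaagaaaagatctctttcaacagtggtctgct

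The letters began 86 bases before the start site of Alas2, 54 bases before that of Epor and 163 bases before that of Trim10. Each of these genes encodes a protein of red cell formation, the erythroid enzyme that opens haem synthesis, the erythropoietin receptor and an erythroid protein of the tripartite motif family. Of the genes compared, 396 (8.26%) were at least 4-fold higher in erythroblasts and 1035 (21.6%) at least 4-fold higher in progenitor/stem cells, or 486 (10.2%) and 837 (17.5%) with haemoglobin left out of the totals. Over windows of 300 bases (250 before to 50 after the start), AGATAA on either strand was found in 10.3% (interval 7.09 to 14.4) of the 290 genes with a window among those at least 4-fold higher in erythroblasts. The share was 7.27% (5.55 to 9.32) of 784 genes at least 4-fold higher in progenitor/stem cells, 6.41% of 3386 genes compared and 11.4% of 27025 windows of all genes. The letters CCNCNCCC, which Krüppel-like factors can bind, were found in 70.3% of the first set, 75.8% of the second and 71.0% of the genes compared. The RUNX letters TGTGGT were found in 16.9%, 11.9% and 12.0% of these sets, and the ETS letters GGAAGT in 22.4%, 28.6% and 31.0%. A match of letters is a description of the window and shows no binding.

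The sums held 666728 UMIs on mouse genes in the erythroblasts and 834812 in the progenitor/stem cells. A well held 466 to 20457 UMIs (median 6113.5) in the first and 2003 to 24033 (median 7959) in the second. Mouse UMIs per UMI of the ERCC spike-in RNA were 17.3 and 18.8. No barcode was shared between wells. One erythroblast well, C5, with 466 UMIs, correlated best with the granulocyte sum, and one progenitor/stem well, K5, with 2003 UMIs, with the B lymphocyte sum. C5 held 71 UMIs of erythroblast markers and 12 of granulocyte markers. K5 held 0 UMIs of B lymphocyte markers, 243 of erythroblast, 52 of granulocyte and 3 of progenitor/stem markers. Both had the surface proteins of their gate (Ter119 fluorescence 5686 in C5, c-Kit 13046 in K5, in arbitrary units). Without both, 708 and 1961 genes were at least 2-fold higher in the erythroblasts and in the progenitor/stem cells, against 707 and 1960 with them.

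The surface proteins used for the gates separated the wells, as a gate must. Ter119 fluorescence was 3046 to 16431 (median 6537) in erythroblast wells and -64 to 134 (median 49) in progenitor/stem wells. Sca-1 fluorescence was 2123 to 25890 (median 5161) in progenitor/stem wells and -111 to 318 (median 3) in erythroblast wells. CD44, which was part of the erythroblast gate, was brighter in the progenitor/stem wells (3578 to 13261, median 6495) than in the erythroblast wells (976 to 6170, median 2526.5), and its transcript Cd44 had 28 UMIs in the former and 1 in the latter. Markers of other cells were scarce in the erythroblasts. The 8 T lymphocyte markers held 26 UMIs (Cd8b1 at 0), the 7 B lymphocyte markers 81 (Pax5 at 0) and the 8 granulocyte markers 1147, or 0.172% of UMIs against 15.2% in granulocytes. The progenitor/stem cells held 40, 216 and 1911 UMIs of the same lists.

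Transcripts of erythroblasts were concentrated on far fewer genes. The 10 genes with the most UMIs took 36.4% of the erythroblast sum and 18.5% of the progenitor/stem sum, and 104 and 600 genes held 50% of the UMIs. With every well thinned to 2000 UMIs, an erythroblast well had 468 to 1201 genes with a UMI (median 837, 95 wells with C5 left out) and a progenitor/stem well 967 to 1381 (median 1249, 95 wells). Unthinned medians were 1868 and 3358 genes. The 100 leading genes took 49.7% and 30.9% with haemoglobin and 34.7% and 30.4% without it, so that most of the gap between the sums at this number of genes lay in haemoglobin.

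Among 4792 genes with at least 50 UMIs in the 2 sums together, 707 (14.8%) were at least 2-fold higher in erythroblasts and 1960 (40.9%) at least 2-fold higher in progenitor/stem cells. The median log2 ratio of erythroblasts over progenitor/stem cells was -0.73, with the 5th and 95th percentiles at -3.97 and 2.95. Leaving haemoglobin out of the totals raised every log2 ratio by 0.37, and 899 (18.8%) and 1529 (31.9%) of 4788 genes then passed the same folds. Under TMM scaling, which centres on the bulk of genes, 1260 and 1157 genes passed, so that 52.1% of the genes called were higher in erythroblasts in place of 26.5%. TMM raised every log2 ratio by 0.81, so ratios between -0.81 and 0 turn positive under it, and higher or lower is meant below relative to the total of each sum.

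**Figure D1:**
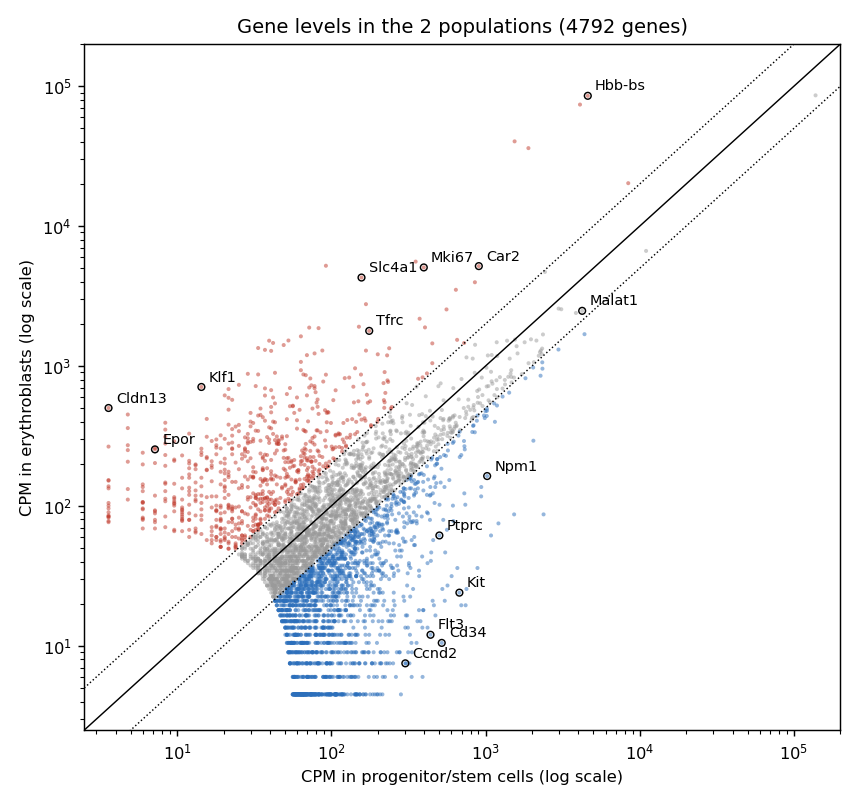
CPM of each of 4792 genes in the erythroblast sum against the progenitor/stem sum, both on log axes, with sums under 3 UMIs drawn at 3 UMIs; the solid line marks equal levels, the dotted lines 2-fold differences, red and blue the 707 and 1960 genes past them. Haemoglobin and red cell genes lie far above the diagonal, and Kit, Cd34, Flt3 and Ccnd2 far below it.

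Haemoglobin took 23.5% (23.4 to 23.6) of the erythroblast UMIs and 1.21% (1.19 to 1.24) of the progenitor/stem UMIs. In single wells it took 3.53% to 52.3% (median 26.6%) of an erythroblast and 0.464% to 16.7% (median 0.991%) of a progenitor/stem cell. The populations overlapped through 3 progenitor/stem wells, K5, K6 and L11, that reached the lowest erythroblast well. K5 had 237 haemoglobin UMIs and 0 of Kit and of Cd34, with 0.399% of its UMIs on haem synthesis genes and 0.849% on red cell membrane genes. K6 had 552 haemoglobin UMIs, 2 of Kit and 8 of Cd34, with 0.216% and 0.501% on the same lists. L11 had 1419 haemoglobin UMIs, 7 of Kit and 1 of Cd34, with 0.177% and 0.247%. All 3 were low in Ter119 fluorescence (90, 40 and 99) and had c-Kit on the surface (13046, 3571 and 6350). Without those 3 wells, a choice made after seeing the data, the share was 0.978%, and 705 and 1927 genes were at least 2-fold higher in erythroblasts and in progenitor/stem cells.

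The share of haemoglobin in progenitor/stem cells was not above that of cells outside the red lineage. It was 1.54% in granulocytes, 1.77% in T lymphocytes and 2.83% in B lymphocytes of the same plate, so that 1.21% was the lowest share of the 5 populations. In haemoglobin UMIs per well the order differed, with medians of 77 in progenitor/stem, 59 in granulocyte, 72 in T and 51.5 in B lymphocyte wells. Mouse UMIs per UMI of the ERCC spike-in were 18.8 in progenitor/stem cells and 9.67, 10.1 and 7.50 in those 3 populations. The source of this haemoglobin was not tested. The log2 ratio was 4.17 (4.12 to 4.22) for Hba-a1, 4.21 (4.16 to 4.26) for Hbb-bs, 4.25 (4.18 to 4.32) for Hba-a2 and higher, 4.71 (4.63 to 4.79), for Hbb-bt. Because Hba-a1 and Hba-a2, and likewise Hbb-bs and Hbb-bt, are near copies, the split of reads within each pair is uncertain. Embryonic globins were seen in erythroblasts at a few UMIs, 16 of Hbb-y and 12 of Hbb-bh1, and 0 of both were found in progenitor/stem cells, granulocytes, B and T lymphocytes. They fell under the minimum for a comparison.

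The genes with the highest ratios included red cell genes with almost no UMI in the progenitor/stem cells. Cldn13, a claudin (chr5:134914249-134915526, GRCm38), reached 0 to 1574 CPM (median 449) in erythroblast wells, against 0 to 172 (median 0) in progenitor/stem wells. A UMI was present in 93.8% of the erythroblast wells and in 3.16% of the others. Its sums were 334 and 3 UMIs, a log2 ratio of 7.12 (5.56 to 9.41). Ermap, which carries the Scianna blood group, had 300 and 4 UMIs and a log2 ratio of 6.55 (5.18 to 8.44), and Trim10 240 and 4 UMIs and a ratio of 6.23 (4.86 to 8.12). The 15 genes at this end ran from 5.32 to 7.12 and also included Pkhd1l1, Tspo2, Apol8, Klf1, Mgll, Ypel4, Smim1, Btnl10, Paqr9, Blvrb, 5430401H09Rik and the pseudogene Hba-ps4. In all 15 the progenitor/stem level was at or below the highest of the 3 other populations, and in 9 at or below that of T lymphocytes. For Ermap it was 4.79 CPM, against 7.43 in granulocytes and 9.98 in T lymphocytes. The first value rests on 4 UMIs, and the other 2 on smaller sums (403506 and 200396 UMIs). The order of these 3 levels is therefore uncertain.

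At the other end stood genes with a handful of UMIs in 96 erythroblasts, among them stem and progenitor genes such as Cd34. Cd34, a surface sialomucin of early progenitors, reached 0 to 1633 CPM (median 462) in progenitor/stem wells and 0 to 274 (median 0) in erythroblast wells. Its sums were 7 and 434 UMIs, a log2 ratio of -5.63 (-6.95 to -4.57). No erythroblast well reached the progenitor/stem median. The 15 genes here ran from -6.02 to -5.31 with sums under 3 UMIs set to 3. They were Gm4759, Adgrg3, Zfp36l2, Cd34, Hoxa9, Sptbn1, Snx10, Itih5, Muc13, Ramp1, Myo5a, Rasa3, Gm19590, Ccnd2 and Gmfg. In all 15 the erythroblast level was at or below that in T lymphocytes, and exons of 6 of them overlap another gene, which leaves their reads uncertain because the use of strand is not given.

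**Figure D2:**
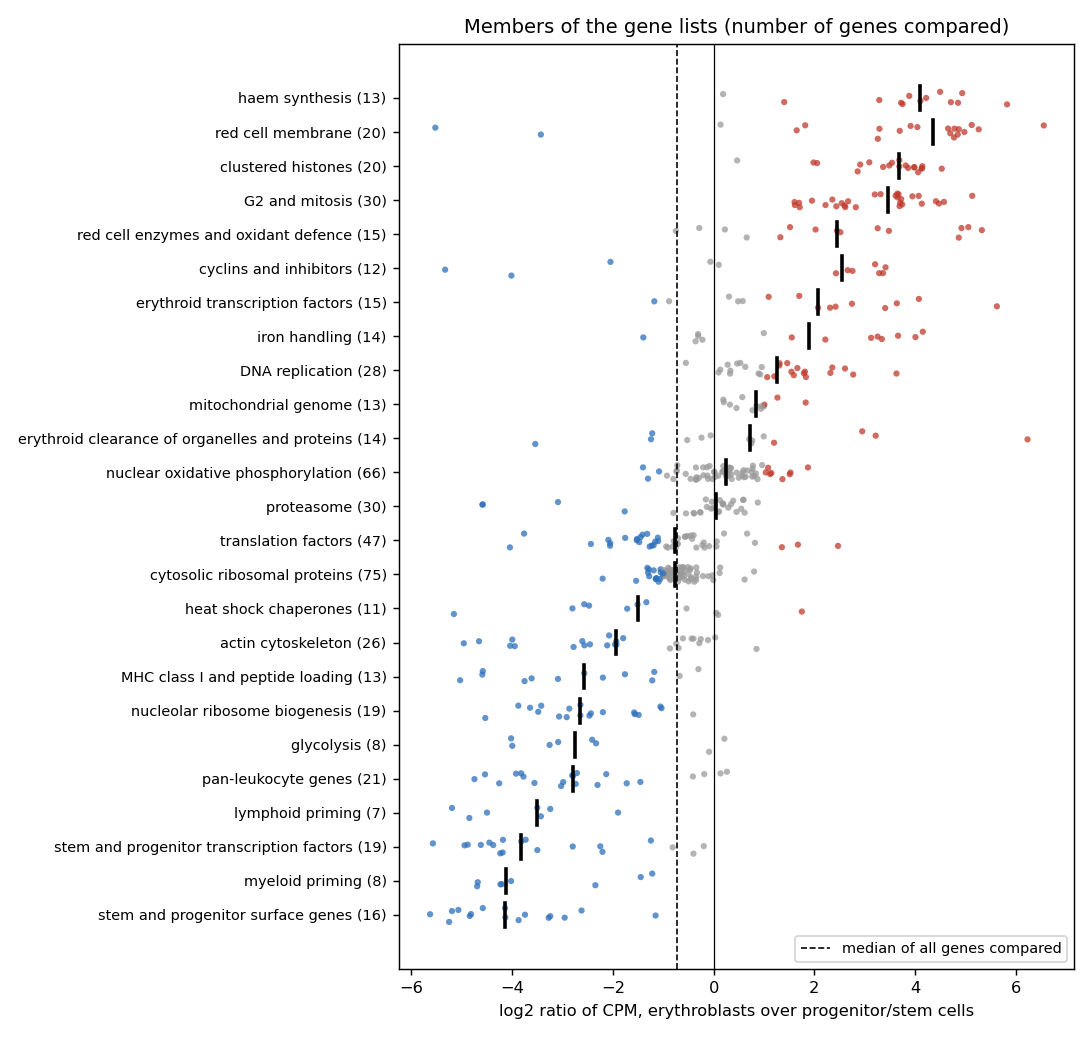
Log2 ratio of CPM (erythroblasts over progenitor/stem cells) for each gene compared in 25 gene lists, with sums under 3 UMIs set to 3; black ticks are list medians, red and blue mark at least 2-fold, and the dashed line is the median of all genes at -0.73. Haem synthesis, red cell membrane, histone and mitosis lists lie to the right (medians 3.46 to 4.35), and stem, priming and leukocyte lists to the left (medians -4.14 to -2.79).

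Haem synthesis was almost wholly on the erythroblast side. Of its 13 genes compared, 12 were at least 2-fold higher in erythroblasts and 0 in progenitor/stem cells, with a median log2 ratio of 4.10, beside 14.8% and -0.73 over all genes. Summed over the list, erythroblast wells held 0.644% to 1.73% (median 1.18%) of UMIs and progenitor/stem wells 0% to 0.399% (median 0.0619%). The 2 ranges did not overlap. The medians of this list and of the membrane list below were 6.17 and 6.80 once erythroblast RNA was taken out of the progenitor/stem sum in the share that brings its haemoglobin to 0, an upper limit.

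Along the pathway, Alas2, the first and limiting enzyme in red cells, reached 86.2 to 7284 CPM (median 2016) in erythroblast wells and 0 to 824 (median 0) in progenitor/stem wells. Its sums were 1243 and 69 UMIs, a log2 ratio of 4.50 (4.15 to 4.87). Alad, which joins pairs of aminolevulinate, stood at 4.22 (3.69 to 4.79). Urod had 468 and 60 UMIs and the lower ratio of 3.29 (2.90 to 3.70). Cpox and Ppox, the oxidases of the pathway, were at 4.71 (4.34 to 5.11) and 3.72 (3.16 to 4.34). Fech, which inserts the iron, was at 3.88 (3.54 to 4.25). The exons of Alas2, Cpox and Ppox overlap another gene.

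Transport genes of the pathway followed. Slc25a38, which carries glycine into the mitochondrion, had 172 and 16 UMIs (3.75, 3.01 to 4.59), and Abcb10, an exporter of the inner membrane, 586 and 24 (4.93, 4.35 to 5.59). Clpx, a mitochondrial unfoldase that helps to activate the first enzyme, was the exception at 0.19. Among the 12 genes, Alad, Slc25a39 and Urod had a progenitor/stem level above that of granulocytes, B and T lymphocytes, and 5 of the 12 a level at or below all 3. Slc25a39 was the least skewed of the 12, at 1.40.

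Of 14 iron genes compared, 8 were at least 2-fold higher in erythroblasts and 1 in progenitor/stem cells (median 1.88). Over all genes these shares were 14.8% and 40.9%. Tfrc, the transferrin receptor, reached 465 to 4011 CPM (median 1769) in erythroblast wells and 0 to 698 (median 146) in progenitor/stem wells. Only 6 progenitor/stem wells reached the lowest erythroblast well, and the log2 ratio of the sums was 3.34 (3.09 to 3.60). Slc25a37, the mitochondrial iron importer, stood at 3.66 (3.39 to 3.94), Slc11a2, which takes iron out of endosomes, at 4.15 (2.86 to 5.82), and the exporter Slc40a1 at 3.26 (2.19 to 4.53).

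Fth1, the ferritin heavy chain, was present in every well of both populations, at 1124 to 8749 CPM (median 3536) in erythroblasts and 135 to 1997 (median 878) in progenitor/stem cells, with 23 of 95 progenitor/stem wells inside the erythroblast range. Its log2 ratio was 2.22 (2.10 to 2.34). Glrx5, which serves iron-sulphur cluster assembly, was at 3.13 (2.77 to 3.50). Ireb2, an iron sensor that binds messenger RNA, was higher in progenitor/stem cells, with 37 and 122 UMIs and a ratio of -1.40 (-1.97 to -0.86). Ncoa4 (-0.36), Tfr2 (-0.31), Iscu (-0.31) and Pcbp1 (-0.22) were within 2-fold, and these 4 turn positive under TMM scaling.

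Membrane and skeleton genes of the red cell had a list median of 4.35. Of 20 genes, 17 were at least 2-fold higher in erythroblasts and 2 in progenitor/stem cells, beside 14.8% and 40.9% of all genes. The 2, Sptan1 and Sptbn1, encode the spectrins of other cells. Slc4a1, the anion exchanger band 3 (chr11:102348824-102366203), reached 0 to 9573 CPM (median 4598) in erythroblast wells and 0 to 1498 (median 135) in progenitor/stem wells. A single erythroblast well was without a UMI of it, and no progenitor/stem well reached the erythroblast median. Its sums were 2857 and 131 UMIs, a log2 ratio of 4.77 (4.52 to 5.04). The water channel Aqp1 had 974 and 35 UMIs (5.12, 4.64 to 5.65). The Rhesus complex genes Rhd and Rhag stood at 4.84 and 4.87.

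Among the non-erythroid spectrins, Sptan1 had 10 UMIs in erythroblasts and 135 in progenitor/stem cells (-3.43, -4.52 to -2.51), and Sptbn1 had 3 and 173 (-5.53, -7.82 to -3.95). The contrasts between paralogs given below were noticed after the values had been seen. Cd47, the signal that keeps phagocytes off, was present in every well of both populations and nearly level, at 1516 (1424 to 1613) and 1379 CPM (1300 to 1461) and a log2 ratio of 0.14 (0.01 to 0.26), and its wells overlapped widely (138 to 2946 and 617 to 3271 CPM). Of the 17 genes higher in erythroblasts, 11 had a progenitor/stem level at or below each of the 3 other populations, and Gypc and Xk a level above all 3.

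Red cell enzymes gave 11 of 15 genes higher in erythroblasts and 0 in progenitor/stem cells (median 2.45), beside 14.8% and 40.9% of all genes. Car2, carbonic anhydrase 2, was one of 3 whose progenitor/stem level lay above each of the other populations. It was at 5173 CPM (5002 to 5349) in erythroblasts and 904 (841 to 971) in progenitor/stem cells, and the latter was above granulocytes (265), B lymphocytes (331) and T lymphocytes (274). Its progenitor/stem wells held 79.2 to 2858 CPM (median 812), and no well of them reached the erythroblast median of 5063. Car1, the red cell isozyme, had 411 and 17 UMIs, with a ratio of 4.92 (4.22 to 5.71) against 2.52 (2.40 to 2.63) for Car2. Blvrb, biliverdin reductase B, was at 5.32 and Gpx1, glutathione peroxidase 1, at 2.45. Catalase (Cat) was within 2-fold at -0.29 (-0.92 to 0.33).

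**Figure D3:**
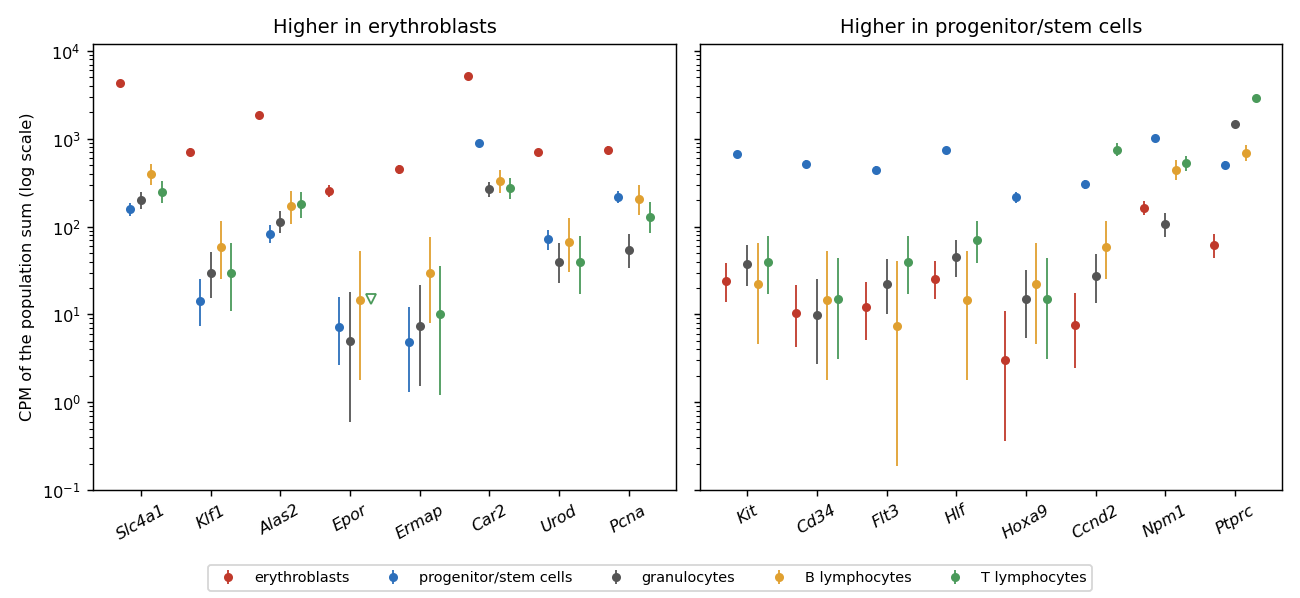
CPM of the population sum (log axis) with 95% Poisson intervals for 16 genes in the 5 populations; an open triangle marks a sum of 0 UMIs, drawn at 3 UMIs. The progenitor/stem level of Slc4a1, Klf1, Alas2, Epor and Ermap lies within or below the range of granulocytes and lymphocytes and that of Car2 above it, and the erythroblast level of Kit, Cd34, Flt3, Hlf, Hoxa9, Ccnd2 and Ptprc lies within or below that range.

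Of 15 erythroid transcription factors compared, 10 were at least 2-fold higher in erythroblasts and 1 in progenitor/stem cells (median 2.07). Among all genes 14.8% and 40.9% were. Klf1, the Krüppel-like activator of adult globin (chr8:84901928-84905291), had 0 to 2269 CPM (median 673) in erythroblast wells and 0 to 182 (median 0) in progenitor/stem wells. Its sums were 472 and 12 UMIs (5.62, 4.80 to 6.58), and the progenitor/stem level of 14.4 CPM was under the 29.7 of granulocytes. E2f2, a cell cycle factor of late erythroblasts, was at 4.07 (3.67 to 4.51), Sox6, which silences embryonic globin, at 3.64 (2.84 to 4.54), and Tal1, a partner of GATA1, at 1.70 (1.24 to 2.18). Tal1, Sox6 and Gfi1b were the 3 whose progenitor/stem level lay above each of the other populations.

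The GATA pair pointed in opposite directions. Gata1 had 203 and 24 UMIs, 304 CPM (264 to 349) against 28.7 (18.4 to 42.8), a log2 ratio of 3.40 (2.79 to 4.08). Gata2, its counterpart in stem and mast cells, had 5 and 118 UMIs, 7.50 CPM (2.44 to 17.5) against 141 (117 to 169), a ratio of -4.24 (-5.89 to -2.97). Gata1 was seen in 77.1% of erythroblast and 20.0% of progenitor/stem wells, and Gata2 in 5.21% and 57.9%. The Gata1 level of granulocytes, 34.7 CPM, lay within the interval of the progenitor/stem cells. Lmo2, the bridge of the GATA1 complex, stayed present in both, at 517 and 956 CPM (-0.89, -1.07 to -0.70), and Nfe2 at 217 and 176 (0.30, -0.04 to 0.65). Lmo2 is close to level under TMM scaling.

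Receptors for the hormones of this lineage lay on opposite sides. Epor reached 0 to 1129 CPM (median 208) in erythroblast wells and 0 to 226 (median 0) in progenitor/stem wells, with 169 and 6 UMIs (5.14, 3.99 to 6.61). Kit, the stem cell factor receptor, reached 0 to 1700 CPM (median 657) in progenitor/stem wells, and 16 UMIs were left in 96 erythroblasts against 565 (-4.82, -5.63 to -4.11). One erythroblast well passed the progenitor/stem median, which at 2146 CPM was 1 UMI in the shallow well C5. Jak2, the kinase under the erythropoietin receptor, was within 2-fold (-0.32, -0.74 to 0.10) and Stat5b lower in erythroblasts (13 and 103 UMIs, -2.66). Of 16 genes listed for these pathways, 5 had enough UMIs to be compared. Among these 5, 1 was at least 2-fold higher in erythroblasts and 3 in progenitor/stem cells, beside 14.8% and 40.9% of all genes.

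**Figure D4:**
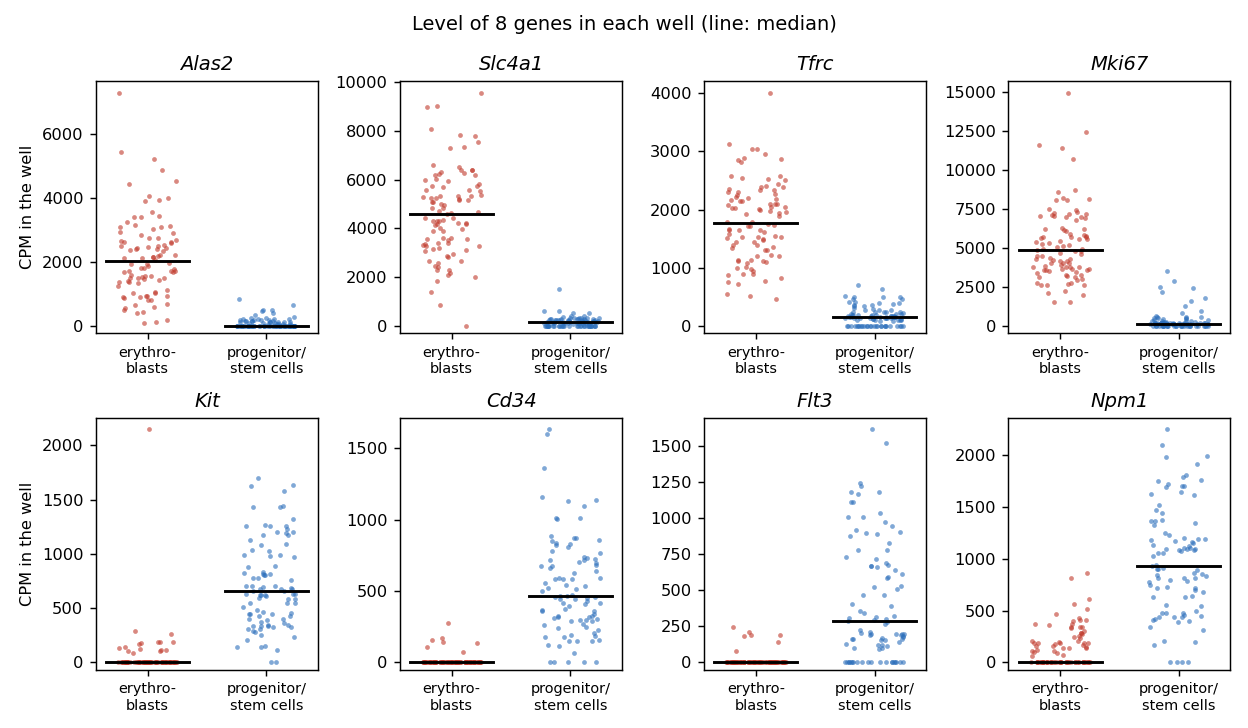
CPM of 8 genes in each of 96 erythroblast wells (red) and 95 progenitor/stem wells (blue), with the median as a line; the vertical scale differs between panels. Alas2, Slc4a1, Tfrc and Mki67 are high in nearly every erythroblast, and Kit, Cd34, Flt3 and Npm1 in most progenitor/stem cells; the single high erythroblast point of Kit is 1 UMI in the shallow well C5.

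The surface genes of stem and progenitor cells that had enough UMIs to be compared were on the other side. All 16 genes compared were at least 2-fold higher in progenitor/stem cells (median -4.14), beside 40.9% of all genes. With haemoglobin left out of the totals, 15 of the 16 were, beside 31.9% of all genes. The list held 437 UMIs in erythroblasts and 5188 in progenitor/stem cells, so the minimum was reached mostly through the latter. Another 9 measured genes fell under it, and the count says nothing about these. Summed, the list took 0.300% to 1.18% (median 0.612%) of UMIs in progenitor/stem wells and 0% to 0.429% (median 0.0589%) in erythroblast wells, and no erythroblast well reached the progenitor/stem median. Adgrg1, an adhesion receptor of stem cells, was present in every progenitor/stem well, at 291 to 2913 CPM (median 1035), with 41 and 906 UMIs (-4.14, -4.63 to -3.69). Adgrl4, a related adhesion receptor, had 13 and 620 UMIs (-5.25, -6.17 to -4.47). Flt3, which marks multipotent and lymphoid-leaning cells, had 8 and 367 UMIs (-5.20, -6.42 to -4.20) and was spread widely among progenitor/stem wells, from 0 to 1615 CPM (median 290).

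Itga2b, a platelet integrin, had 7 and 54 UMIs (-2.62). Its erythroblast level of 10.5 CPM rests on these few UMIs and lay near the 7.36 CPM of B lymphocytes. Ly6a, the gene of the Sca-1 protein, had 3 and 66 UMIs and a median of 0 CPM in progenitor/stem wells, although the median Sca-1 fluorescence of these wells was 5161.

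Stem cell transcription factors gave 16 of 19 genes higher in progenitor/stem cells and 0 in erythroblasts (median -3.82), beside 40.9% and 14.8% of all genes. With haemoglobin left out of the totals, 15 were higher in progenitor/stem cells, beside 31.9% of all genes. The list held 456 UMIs in erythroblasts and 4583 in progenitor/stem cells, so the minimum was reached mostly through the latter. Another 13 measured genes fell under it. Hlf, a leucine zipper factor of stem cells, reached 0 to 3356 CPM (median 673) in progenitor/stem wells and 0 to 287 (median 0) in erythroblast wells, with 17 and 628 UMIs (-4.88, -5.67 to -4.19). Hoxa9 had 2 and 179 UMIs (-6.16, -9.22 to -4.29), Myc 5 and 193 (-4.95, -6.59 to -3.70), Mef2c 12 and 329 (-4.45), and Myb, which holds erythroid progenitors in an immature state, 24 and 548 (-4.19, -4.84 to -3.60). For 13 of the 16 the erythroblast level lay at or below each of the 3 other populations. Tcf12 (-0.81), Lyl1 (-0.40) and Nfix (-0.20) were within 2-fold.

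Genes of other fates were also progenitor/stem genes here. All 8 genes compared of the myeloid list and all 7 of the lymphoid list were at least 2-fold higher in progenitor/stem cells (medians -4.11 and -3.50). The share over all genes was 40.9%. With haemoglobin left out of the totals the counts were 7 and 7, beside 31.9% of all genes. In each list 8 measured genes fell under the minimum. Mpo, the granule peroxidase, had 6 and 193 UMIs (-4.68, -6.15 to -3.53) and was seen in 46.3% of progenitor/stem wells, from 0 to 1829 CPM. Dntt, which adds bases to receptor joins in lymphocytes, had 9 and 325 UMIs (-4.85, -5.99 to -3.91), and its wells ran from 0 to 5785 CPM with a median of 0. Lyz2 had a smaller difference (89 and 304 UMIs, -1.45), and granulocytes held 13041 CPM of it against 133 in erythroblasts and 364 in progenitor/stem cells.

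Most leukocyte genes were lower in erythroblasts than in the other populations. Of 21 pan-leukocyte genes, 17 were at least 2-fold higher in progenitor/stem cells and 0 in erythroblasts (median -2.79). Among all genes 40.9% and 14.8% were. For all 17 the erythroblast level was at or below that of granulocytes, B and T lymphocytes. Ptprc, the leukocyte phosphatase CD45, was at 61.5 CPM (44.1 to 83.4) in erythroblasts and 502 (455 to 552) in progenitor/stem cells (-3.03, -3.53 to -2.56). T lymphocytes had 2904 CPM of it. Vav1, a signalling exchange factor, had 1 and 101 UMIs (-6.33, -11.65 to -3.82). Of the 4 genes within 2-fold, 2 had a ratio above 0. They were Cd47, given above, and the adhesion chain Itga4, with 297 and 310 UMIs (0.26, 0.03 to 0.50).

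Of 26 actin genes, 15 were at least 2-fold higher in progenitor/stem cells, beside 40.9% of all genes, and 0 in erythroblasts (median -1.93). Vim, an intermediate filament gene, had 9 and 351 UMIs (-4.96, -6.10 to -4.02), and Tmsb4x, which binds free actin, 91 and 783 (-2.78, -3.11 to -2.47). Actb itself was within 2-fold, at 2544 and 3098 CPM (-0.28, -0.37 to -0.20), and it turns to the erythroblast side at 0.09 with haemoglobin left out of the totals. The list of MHC class I and peptide loading genes gave 11 of 13 on that side (median -2.57), beside 40.9% of all genes. With haemoglobin left out of the totals it gave 9, beside 31.9%. Its members include Psmb8, Psmb9 and Psmb10, which are counted again among the proteasome genes below. H2-K1, a heavy chain, had 3 and 123 UMIs (-5.03, -7.33 to -3.45), while B2m, the light chain, had 874 and 2479 (-1.18, -1.29 to -1.07).

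Of 30 proteasome genes compared, 0 were at least 2-fold higher in erythroblasts and 4 in progenitor/stem cells, beside 14.8% and 40.9% of all genes. The list median was 0.04, beside -0.73 over all genes. The 3 catalytic subunits of the immunoproteasome were among the 4. Psmb8 had 10 and 302 UMIs (-4.59, -5.67 to -3.69), Psmb9 12 and 128 (-3.09, -4.08 to -2.24) and Psmb10 2 and 90 (-5.17, -8.24 to -3.27). Their constitutive counterparts were within 2-fold, Psmb5 at -0.80 (-1.72 to 0.07), Psmb6 at -0.39 (-0.87 to 0.08) and Psmb7 at 0.62 (0.19 to 1.05). Exons of Psmb8 and Psmb9 overlap another gene, and those of Psmb10 do not.

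Division genes were far higher in erythroblasts. All 30 G2 and mitosis genes compared were at least 2-fold higher there (median 3.46), beside 14.8% of all genes. Per well the list took 0.787% to 4.59% (median 2.10%) of UMIs in erythroblasts and 0.0275% to 1.22% (median 0.143%) in progenitor/stem cells, and 4 progenitor/stem wells reached the lowest erythroblast well. Mki67, a coat protein of mitotic chromosomes, was present in every erythroblast well, at 1523 to 14948 CPM (median 4845), and at 0 to 3500 (median 132) in progenitor/stem wells. The log2 ratio was 3.67 (3.51 to 3.84). Ube2c, a partner of the anaphase ligase, had 869 and 31 UMIs (5.13, 4.62 to 5.70).

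DNA replication genes differed less and overlapped more. Of 28 compared, 16 were at least 2-fold higher in erythroblasts and 0 in progenitor/stem cells (median 1.25), beside 14.8% and 40.9% of all genes. The list took 0.0369% to 1.41% (median 0.731%) of UMIs in erythroblast wells and 0.0314% to 1.11% (median 0.161%) in progenitor/stem wells. Rrm2, a subunit of ribonucleotide reductase, had 247 and 25 UMIs (3.63, 3.03 to 4.28) and Pcna, the sliding clamp, 503 and 182 (1.79, 1.54 to 2.04), but the helicase subunit Mcm6 was level at 292 and 342 (0.10, -0.13 to 0.33). For 12 of the 16 the progenitor/stem level lay above each of the 3 other populations. Clustered histone genes gave 19 of 20 at least 2-fold higher in erythroblasts (median 3.69), beside 14.8% of all genes. Copies that share sequence make single members uncertain.

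Cyclins and their partners changed by type. Ccnd3, the D cyclin of erythroblasts, had 642 and 119 UMIs (2.76, 2.47 to 3.05), while Ccnd2 had 5 and 252 (-5.33, -6.97 to -4.09). Cdk6, the kinase partner of D cyclins, had 50 and 1012 UMIs (-4.01, -4.45 to -3.60) and Cdk4 50 and 259 (-2.05, -2.52 to -1.61). Ccne1 (3.41, 2.66 to 4.26) and the kinase inhibitor Cdkn2c (3.36, 2.67 to 4.13) were higher in erythroblasts, and the inhibitor Cdkn1b was level at -0.07. Exons of Ccnd2, Ccnd3, Cdk4 and Cdk6 overlap other genes. Of 12 genes in the list, 7 were at least 2-fold higher in erythroblasts and 3 in progenitor/stem cells. The shares over all genes were 14.8% and 40.9%. In the survival family, Bcl2 had 4 and 119 UMIs (-4.57, -6.47 to -3.18) and Bcl2l1, the member used by late erythroblasts, 33 and 18 (1.20, 0.33 to 2.11).

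Most genes that build ribosomes were lower in erythroblasts. Of 19 nucleolar genes compared, 18 were at least 2-fold higher in progenitor/stem cells (median -2.65), beside 40.9% of all genes. With haemoglobin left out of the totals 16 were, beside 31.9% of all genes. The list held 547 UMIs in erythroblasts and 3280 in progenitor/stem cells, and another 11 measured genes fell under the minimum. Npm1, nucleophosmin, reached 0 to 2252 CPM (median 932) in progenitor/stem wells and 0 to 868 (median 0) in erythroblast wells, with 109 and 855 UMIs (-2.65, -2.95 to -2.36). Ribosomal protein genes gave 16 of 75 (median -0.77) and translation factors 19 of 47 on that side and 3 on the other (median -0.76), beside 40.9% and 14.8% of all genes, with both medians close to the -0.73 of all genes and both turning slightly positive under TMM scaling (0.04 and 0.05). With haemoglobin left out of the totals, 2 ribosomal protein genes and 12 translation factors were at least 2-fold higher in progenitor/stem cells, and 1 and 5 in erythroblasts. Eif2ak1, the haem-sensing kinase that slows translation, was one of the 3 at 2.47 (2.13 to 2.82), with exons that overlap other genes.

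Of 8 glycolysis genes, 6 were at least 2-fold higher in progenitor/stem cells, beside 40.9% of all genes, and 0 in erythroblasts (median -2.75). Pkm, pyruvate kinase, had 31 and 371 UMIs (-3.26, -3.84 to -2.73) and Ldha, lactate dehydrogenase, 25 and 266 (-3.09, -3.74 to -2.49). Nuclear genes of oxidative phosphorylation were mostly within 2-fold, 8 of 66 higher in erythroblasts, near the 14.8% of all genes, and 3 in progenitor/stem cells (median 0.25). With haemoglobin left out the counts were 18, beside 18.8% of all genes, and 1 (median 0.62). The list took nearly the same share of a median well, 0.797% and 0.769%. Mitochondrial genome RNAs were at least 2-fold higher in erythroblasts for 3 of 13 (median 0.85), and for 8 of 13 with haemoglobin left out (median 1.22), beside 14.8% and 18.8% of all genes. Their share of a well varied more within each population, 0.166% to 8.51% (median 2.71%) and 0.169% to 9.02% (median 0.744%), than the medians differed. Chaperones gave 7 of 11 higher in progenitor/stem cells, beside 40.9% of all genes, and 1 in erythroblasts, with Hsp90ab1 at 195 and 1705 UMIs (-2.80, -3.03 to -2.59).

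Of 14 genes of organelle clearance, 4 were at least 2-fold higher in erythroblasts and 3 in progenitor/stem cells (median 0.73), beside 14.8% and 40.9% of all genes. With haemoglobin left out of the totals these counts were 8 and 1 (median 1.10), beside 18.8% and 31.9%. Trim10 and Ube2o, a ubiquitin enzyme that strips ribosomal proteins in reticulocytes, were at 6.23 and 2.95 (2.22 to 3.76), and Bnip3l, the receptor for mitochondrial removal, was within 2-fold at 0.71 (0.26 to 1.16). Noncoding nuclear RNAs gave 5 of 11 higher in progenitor/stem cells and 0 in erythroblasts (median -0.88), near the 40.9% and -0.73 of all genes, with Malat1 at 2478 and 4231 CPM. Lists for other marrow cells had few genes with enough UMIs to compare, 1 each for megakaryocytes, macrophages and stroma and 2 for mast cells. They took at most 0.0154% of the erythroblast sum and 0.111% of the progenitor/stem sum.

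The 96 erythroblasts differed among themselves along the share of haemoglobin, and the gene groups above moved with it in different directions. To keep haemoglobin out of the denominator, each list was taken as a percentage of the UMIs not on haemoglobin. The membrane list ran from 0.758% to 5.44% of these and had a Spearman correlation of 0.93 with the haemoglobin share across the 96 wells. Haem synthesis had 0.85 and G2 and mitosis 0.70. DNA replication, from 0.0604% to 1.91%, had -0.68, and ribosomal proteins, from 0.522% to 10.1%, had -0.82.

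The same wells also differed in depth, since the haemoglobin share itself had a correlation of -0.66 with the UMIs of a well. With every well thinned to 2000 UMIs (95 wells), the values were 0.88, 0.77 and 0.67 for membrane, haem and mitosis genes and -0.68 and -0.81 for replication and ribosomal protein genes. Mitochondrial genome RNAs had -0.05 and the stem cell surface list 0.14. These correlations describe cells of 1 mouse that share a plate, and the part of depth in them was not tested. The range of ribosomal proteins within erythroblasts, 0.259% to 9.40% of all UMIs (median 2.42%), was wider than that of progenitor/stem wells, 2.65% to 9.11% (median 6.30%), and 14 of 96 erythroblast wells reached the progenitor/stem median.

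**Figure D5:**
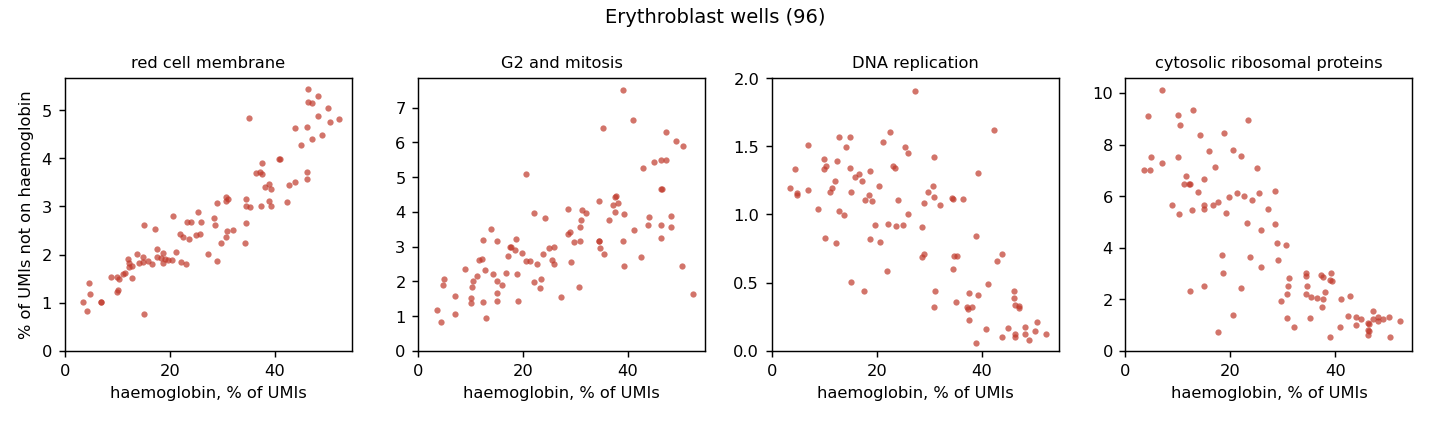
Share of 4 gene lists among the UMIs not on haemoglobin (vertical axes, %) against the share of haemoglobin among all UMIs (horizontal axes, %) in 96 erythroblast wells, each point 1 well. Membrane and mitosis genes are higher, and replication and ribosomal protein genes lower, in wells with more haemoglobin (Spearman 0.93, 0.70, -0.68 and -0.82).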

How the data were processed

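CEL-seq2 was run on index-sorted marrow and thymus cells of 1 mouse. The table the authors deposited holds raw UMI counts for each gene in each well, made with scPipe. The sources used here do not give the aligner version, genome build, annotation or whether strand was used. The well in a column's name gave its sample, and 9 columns without a sample were set aside. Of 19829 mouse gene rows, 19755 had a symbol in GENCODE M21 (GRCm38), from which coordinates and exon overlaps were taken. Promoter windows are from RefSeq (GRCm38.p6).

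Counts were summed over the wells of a population and scaled to UMIs on mouse genes, with 74 ERCC rows left out. Genes with at least 50 UMIs in both sums together were compared, and a call is a ratio of at least 2-fold (4-fold for promoters), with sums under 3 UMIs set to 3 for calls, ranks and medians. Ratios of single genes are printed without that floor. Intervals are exact Poisson for CPM, exact conditional binomial for ratios and exact binomial for shares, at 95%. Because all cells came from 1 mouse, no p-value was computed. A well was placed with the population whose sum its counts correlated with best over 3906 genes, and no doublet caller was run. The 36 gene lists and the named genes (the 15 highest and 15 lowest ratios among genes seen in 25% or more of wells in the population where they were higher, and list members) were chosen with earlier results of these data known. Some genes of the lists are counted in them but not reported by name, and others are not analysed here. The steps were tested on simulated data. Python 3.11.15, numpy 2.4.6, pandas 2.3.3, scipy 1.17.1, R 4.3.3 and edgeR 4.0.16 (TMM factors only) were used.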

Additional observations from a re-analysis of the deposited data

How the results depend on the processing

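No paired analysis was possible because each population is 1 sample of 1 mouse and no test was run. The genes at least 2-fold higher in erythroblasts and in progenitor/stem cells numbered 1260 and 1157 with TMM factors and 1297 and 1137 with median-of-ratios factors, 262 and 316 at a minimum of 200 UMIs, 1322 and 5739 at 1 UMI, and 297 and 408 with wells thinned to 2000 UMIs. At a minimum of 20 UMIs, 3989 were higher in progenitor/stem cells. The median log2 ratio was 0.083 with TMM factors, 0.12 with median-of-ratios factors, -0.84 with ERCC as the total, -0.87 as a mean of wells, -0.98, -0.49 and -0.091 at 20, 200 and 1 UMIs, -0.55 thinned, and -0.63, -0.61, -0.62 and -0.61 without plate row K, L, M or N. With haemoglobin left out, 309, 1785 and 344 genes were higher in erythroblasts at 200 UMIs, at 1 UMI and thinned. On the other side there were 3312, 219, 4528 and 249 at 20, 200 and 1 UMIs and thinned. The median was then 0.082 and 0.12 with the 2 factor methods, -0.85 with ERCC, -0.48 as a mean of wells, -0.61, -0.13 and 0.28 at 20, 200 and 1 UMIs, -0.11 thinned, and -0.26, -0.24, -0.25 and -0.24 without row K, L, M or N. The medians of the megakaryocyte and macrophage lists turned to 0.32 at 1 UMI, where the floor of 3 UMIs sets both values. No gene past 2-fold changed direction among the named genes that an alternative could give a value for, which were 329 of 615 at 200 UMIs, 333 thinned and 587 or more otherwise. Leaving out the 3 progenitor/stem wells with the most haemoglobin, a choice made after seeing the data, gave 705 and 1927 genes. Taking out of the progenitor/stem sum the share of the erythroblast sum that brings its haemoglobin to 0, an upper limit, gave 736 and 2009 genes. It moved 10 of 35 list medians and 85 of 615 named genes, with medians of 9.22 for globins, 6.80 for membrane, 6.17 for haem synthesis, 4.82 for histone and 4.63 for mitosis genes in place of 4.23, 4.35, 4.10, 3.69 and 3.46. Depth limits rare genes, and 1 mouse limits all statements to these cells.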
